A study of Drosophila melanogaster with 3 samples.

Results

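The proteasome subunit genes of Drosophila melanogaster were examined for binding of Sp1-GFP at their promoters. Members were the protein-coding genes whose symbol starts with Prosalpha, Prosbeta, Rpn or Rpt followed by a digit, which gave 48 of 13945 protein-coding genes. By symbol alone, 32 of them are unsuffixed subunit genes and 16 are copies with an R or T suffix. The data are peak lists from ChIP-seq with an antibody to GFP, in whole larvae of the third instar at the wandering stage. The strain, Sp1-GFP, is a transgenic line that makes Sp1 fused to GFP at its C terminus, and larvae of both sexes were pooled. All 3 biological replicates form a single group of 1 line, taken from separate biosamples, and no treatment, other genotype or untagged line was used here. A single control entered every peak call, and its own level was not analysed here. Whether the larvae also kept untagged Sp1 is not stated in the labels. A whole larva mixes all tissues, so a peak shared by many cells and a stronger one in few cells cannot be told apart.

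The proteasome is the large protease that degrades proteins marked with ubiquitin. Its core particle is a barrel of alpha rings, which gate the entrance, and beta rings, which hold the proteolytic sites. The regulatory particle caps the barrel: its base holds the Rpt ATPases, which unfold and thread substrates, and its lid holds the subunit that removes ubiquitin. Because the subunits are needed in fixed proportion, their genes are known to be expressed together. Sp1 is a zinc finger factor of the Sp/KLF family, known in the fly for its role in leg and antenna growth.

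The DNA at the summits is printed first, because the results below turn on where in it the summit lies. Each line is the reference sequence (dm6, Release 6) within 75 bp of an optimal summit, read 5′ to 3′ on the strand of the named gene and cut where an exon begins. Members on the right arm of chromosome 2 and members whose summit lies in an exon are left out. Capitals mark a TATA box word (TATAAA) or ATCGAT, the core of the DNA replication-related element (DRE), on either strand.

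Rpn5, chr3R:5789175-5789325, strand +: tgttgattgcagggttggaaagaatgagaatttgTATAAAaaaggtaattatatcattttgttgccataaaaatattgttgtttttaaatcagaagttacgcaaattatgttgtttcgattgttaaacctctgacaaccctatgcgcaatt

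Rpn11, chr2L:5059915-5060065, strand -: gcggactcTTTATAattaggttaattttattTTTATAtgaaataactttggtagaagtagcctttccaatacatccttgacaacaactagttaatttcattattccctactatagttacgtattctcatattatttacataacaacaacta

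Rpn2, chr3R:29153366-29153516, strand +: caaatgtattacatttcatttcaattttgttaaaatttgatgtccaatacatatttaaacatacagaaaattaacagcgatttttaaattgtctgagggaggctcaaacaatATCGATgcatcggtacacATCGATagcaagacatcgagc

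Rpn12, chr3L:16582853-16583003, strand +: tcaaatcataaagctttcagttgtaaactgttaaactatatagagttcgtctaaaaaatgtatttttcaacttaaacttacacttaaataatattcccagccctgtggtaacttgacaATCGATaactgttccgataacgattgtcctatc

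Prosalpha4, chrX:16275918-16276048, strand +: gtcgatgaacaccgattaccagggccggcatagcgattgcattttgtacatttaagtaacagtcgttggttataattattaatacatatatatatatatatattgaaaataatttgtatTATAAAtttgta

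Rpt5, chr3R:23752835-23752875, strand +: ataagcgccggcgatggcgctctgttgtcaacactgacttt

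Rpt4, chrX:6291246-6291302, strand -: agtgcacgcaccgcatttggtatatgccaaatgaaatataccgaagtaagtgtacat

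The last pair are short because the named gene and a neighbour on the other strand start close together: Rpt5 and RanBP3 start 42 bp apart and Rpt4 and mldr 58 bp apart. The first stretches are rich in A and T. Within 100 bp of the summit the G+C content was 30.8% at Rpn5 and 26.4% at Rpn11, against 43.8% at Rpt5 and 44.8% at Rpt4.

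A promoter peak is one with its summit within 500 bp of any transcription start site (TSS) of the gene, and the highest such peak stands for the gene in each list. Each replicate list and the pooled list held 30000 peaks. The authors' optimal set, filtered by the irreproducible discovery rate (IDR), held 8001 peaks, which were the strongest of the pooled list, down to a signal of 220. All signals are the authors' own peak values in arbitrary units, with no stated scaling between lists. The strongest 8001 peaks of replicates 1, 2 and 3 reached down to signals of 82.6, 90.6 and 77.0, with medians of 149, 153 and 154. Means, SDs and orders over replicates below take the values as deposited and so include any difference in scale between lists. Read depth is unknown from these lists. Replicate 3 stood apart at these genes, as described below.

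Among the 32 unsuffixed genes, 16 (50%) had an optimal promoter peak, and none of the 16 copies did. Over all protein-coding genes the share was 27.8%, and over all 48 members it was 33.3%. In the pooled list, 22 unsuffixed genes (68.8%) and 1 copy had a promoter peak, against 42.6% of all genes. Replicates 1 and 2 each had a peak at 28 of the 32 (87.5%), where all genes gave 49.4% and 48.5%. Replicate 3 had one at 15 of the 32 (46.9%), against 38.4% of all genes.

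The higher share depended on the peaks counted. With only the stronger 50% of optimal peaks, 18.8% of the unsuffixed genes and 16.4% of all genes had a promoter peak. It also differed between pairs of replicates, counted on their own lists in place of the optimal set. Genes with a summit among the 8001 strongest peaks of both replicates 1 and 2 included 16 of the 32 (50%), with 25.1% of all genes. For replicates 1 and 3 they included 8 (25%, all genes 20.4%) and for replicates 2 and 3 they included 6 (18.8%, all genes 19.0%). The share at unsuffixed genes was well above that of all genes in the pair without replicate 3, and close to it in both pairs with replicate 3. In all 3 replicate lists at any strength, 14 members had a promoter peak, 43.8% of the unsuffixed genes, against 31% of all genes. Among the strongest peaks of all 3, there were 6 members, 18.8% of the unsuffixed genes and near the 18.1% of all genes.

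**Figure D1:**
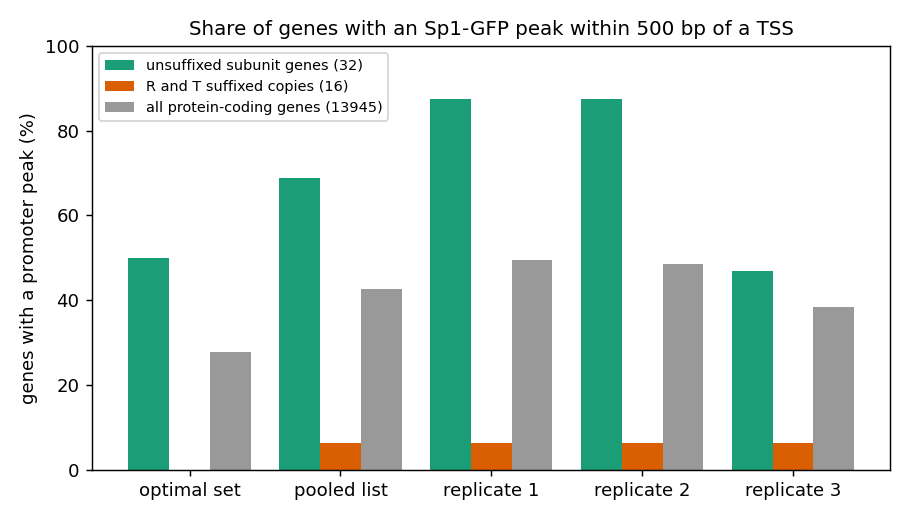
Share of genes (%) with a promoter peak in the optimal set, the pooled list and each replicate list, for unsuffixed proteasome genes, for copies with an R or T suffix and for all protein-coding genes. The unsuffixed genes stand at 87.5% in replicates 1 and 2 and at 46.9% in replicate 3, while the copies stay at or below 6.25%.

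The lid of the regulatory particle held the strongest peaks, with 5 of its 8 genes in the optimal set. Rpn5, a scaffold subunit, had signals of 210, 307 and 357 in replicates 1, 2 and 3 and of 867 in the pooled list (3R, peak 5788986 to 5789561). Rpn3, another scaffold subunit, had 251, 209 and 313 and a pooled signal of 757 (2L, 19051680 to 19052040). Rpn11, the metalloprotease that cuts ubiquitin from substrates, had 224, 254 and 228 and a pooled signal of 699 (2L, 5059704 to 5060248). These were the only members above a signal of 600, and every replicate had a peak at each of them.

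The mean over replicates was 291 ± 74.6 at Rpn5, 258 ± 52.7 at Rpn3 and 235 ± 16.4 at Rpn11 (SD, n = 3 each). The replicate ranges of the 3 genes overlap, so they cannot be put in order. Even the highest was not among the tallest sites of the factor: Rpn5 ranked 1620 of the 8001 optimal peaks, and 989 among the 3873 genes with an optimal promoter peak. At Rpn3, 90.6% of 31-base words around the TSSs are unique in the genome, so some reads there may also fit elsewhere.

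The other lid peaks were lower. Rpn8, the partner of Rpn11, had 89.6, 112 and 176 in replicates 1, 2 and 3 (126 ± 44.6, SD, n = 3; pooled 372). Rpn12 had 175, 79.5 and 120 (125 ± 47.7, SD, n = 3; pooled 370; 3L, 16582798 to 16583048). Replicate 3 was highest at Rpn8 and replicate 1 at Rpn12. The Rpn8 summit lay in an intron of Rpn8, 202 bp upstream of the nearer of its 2 TSSs. Rpn8 was the only member left without an optimal promoter peak when the distance was cut to 200 bp, and also when only the most upstream TSS was used. The main summits of Rpn5 (-243 bp) and Prosalpha4 (-297 bp) also lay beyond 200 bp. Those genes stayed counted through lower second summits at -44 bp (signal 443) and -63 bp (240).

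The remaining lid genes had weaker or no pooled peaks. Rpn9 came closest to the optimal set, with a pooled signal of 211 and replicate signals of 101, 105 and 69.0. Rpn7 had a pooled signal of 176, and its replicate 3 value of 96.1 was above the 33.2 and 45.4 of replicates 1 and 2. Rpn6 had 130 and 128 in replicates 1 and 2, among the strongest 8001 of each, but no peak in replicate 3 and no pooled peak within 500 bp of a TSS.

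The Rpt ATPases of the base had no peak in replicate 3 at any of the 6 genes, while 38.4% of all genes had one. Rpt5 was highest at 220 (replicate 1) and 241 (replicate 2), with a pooled signal of 588 (3R, 23752714 to 23752986). Rpt4 had 86.0 and 130 (pooled 269; X, 6291173 to 6291365), and Rpt2 had 91.8 and 97.3 (pooled 258; 3R, 23931233 to 23931688). These 3 were in the optimal set although 1 of the 3 replicates had no peak there.

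Among the other ATPase genes, Rpt6 had 92.3 and 85.5 in replicates 1 and 2 and no pooled peak, and 95.3% of its 31-base words are unique. Rpt3 had 69.7 and 38.8, with a pooled peak of 132 whose summit lay at -472 bp (negative is upstream of the TSS). Rpt1 had no promoter peak in any list. The nearest optimal summit to it was 11643 bp away.

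Of the 4 other base genes, the ubiquitin receptor gene Rpn13 and the scaffold gene Rpn2 were in the optimal set. Rpn13 had 161, 174 and 164 in replicates 1, 2 and 3 (167 ± 6.78, SD, n = 3; pooled 502; on 2R), the smallest spread of any member found in all 3. Rpn2 had 196, 180 and 103 (160 ± 49.7, SD, n = 3; pooled 470; 3R, 29153346 to 29153577), lowest in replicate 3. The scaffold gene Rpn1 had 68.2 and 99.4 in replicates 1 and 2 and no pooled peak, and the ubiquitin receptor gene Rpn10 had 69.6 in replicate 2 alone.

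In the beta rings, 3 of 7 genes were in the optimal set. Prosbeta1, which carries the caspase-like site, had 139, 123 and 53.4 in replicates 1, 2 and 3 (105 ± 45.6, SD, n = 3; pooled 311; on 2R). Prosbeta7 had 87.5, 110 and 69.9 (89.3 ± 20.4, SD, n = 3; pooled 274; 3R, 5358055 to 5358181), with its summit in an exon outside the coding sequence. Prosbeta5, which carries the chymotrypsin-like site, had 118 in replicate 1, 160 in replicate 2 and no peak in replicate 3 (pooled 340; on 2R). The first of these were lowest in replicate 3, and the last had no peak there.

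The other beta genes were weak. Prosbeta2, which carries the trypsin-like site, had 60.8 in replicate 1 and 62.6 in replicate 3 with no pooled peak. Prosbeta3 and Prosbeta6 had pooled signals of 107 and 115, and Prosbeta4 had a peak of 78.2 in replicate 2 alone.

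In the alpha rings, 3 of 7 genes were likewise in the optimal set. Prosalpha4 varied most: replicate 2 had 35.5 where replicates 1 and 3 had 157 and 160 (118 ± 71.1, SD, n = 3; pooled 342; X, 16275817 to 16276108). Prosalpha2 had 122, 95.5 and 50.6 (89.2 ± 35.9, SD, n = 3; pooled 245; 3R, 12430970 to 12431425), the lowest member in the optimal set. Its summit lies in an exon of CG5245 outside the coding sequence. Prosalpha7 had 105 in replicate 1, 127 in replicate 2 and no peak in replicate 3 (pooled 258; on 2R).

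Prosalpha6 had a pooled signal of 121, Prosalpha5 had 80.2 and 42.8 in replicates 1 and 2, and Prosalpha3 had 55.9 in replicate 1 alone. Prosalpha1 had no peak in any list, but this cannot be read as absence. Of the 31-base words within 500 bp of its TSS, 0% are unique in the genome, and the same holds for its copy Prosalpha1R. How the authors treated reads that fit more than 1 place is not given in the sources used here.

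**Figure D2:**
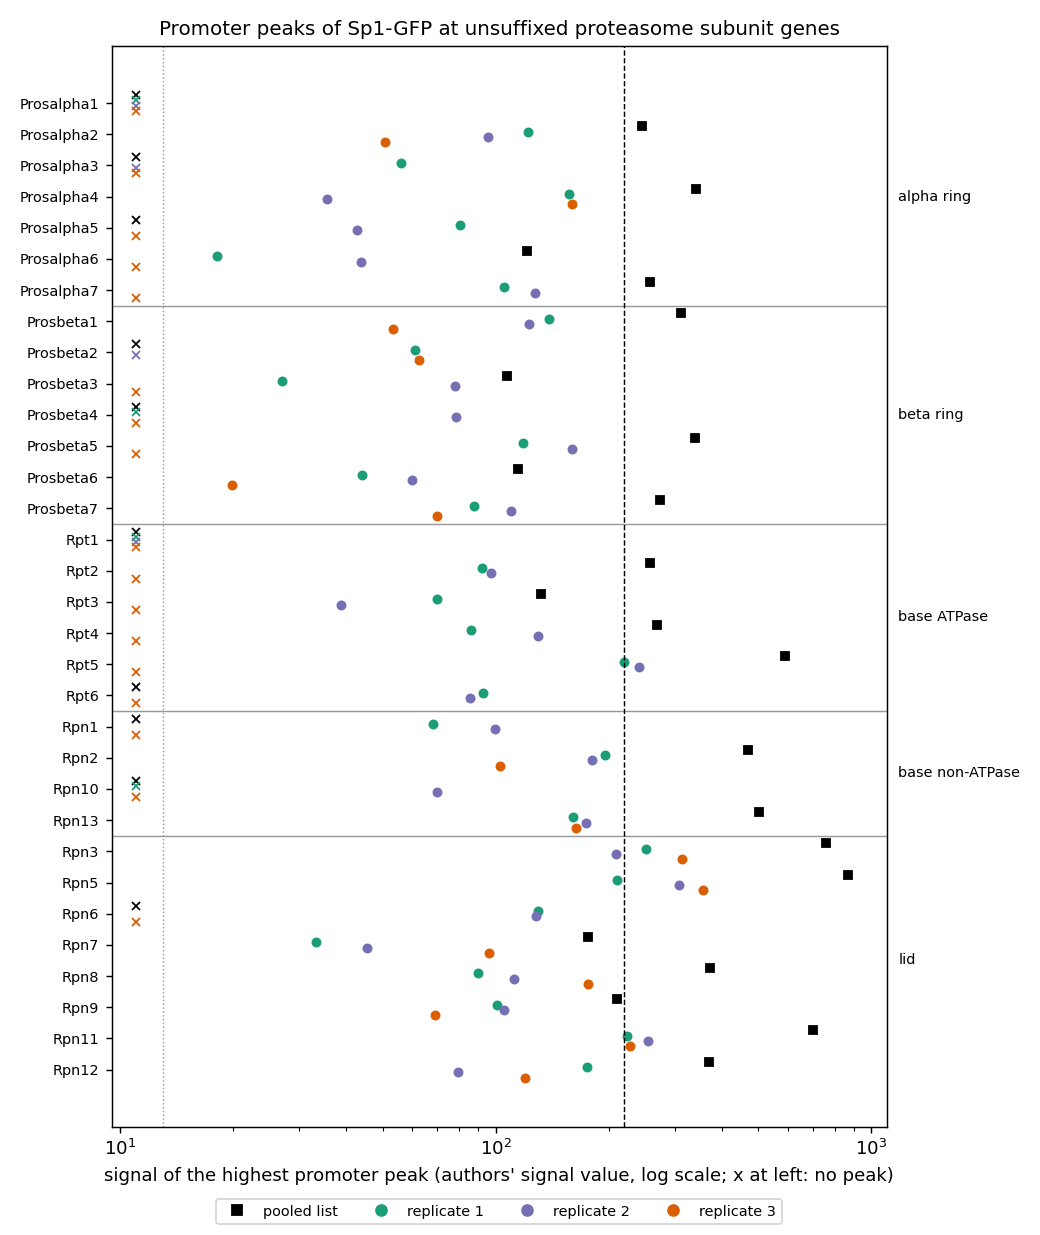
Signal of the highest promoter peak (authors' signal value, log axis) of each unsuffixed gene, by replicate and in the pooled list, with crosses at the left where a list has no peak. The dashed line is the lowest optimal signal of 220, and it applies to the pooled squares. Replicate 3 has no peak at any Rpt gene, while 38.4% of all genes have one in that list. Among lid genes replicate 3 has the highest replicate signal at Rpn3, Rpn5, Rpn7 and Rpn8.

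Set against all genes, the member peaks were modest in height. Their median pooled signal was 356, against 484 for the 3873 genes with an optimal promoter peak, and 5 of the 16 were above that median. Both medians are descriptions of genes that had to pass the same signal threshold. Of the 16, 11 had a peak in all 3 replicates, with a median coefficient of variation of 31.1% (lowest 4.07%, highest 60.5%). For the 3274 such genes overall the median was 22.4%. These values leave out the 5 members at which replicate 3 had no peak.

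Among the 16 members with an optimal promoter peak, those that lacked a replicate 3 peak had their highest summit next to the TSS. The summits of Rpt4, Rpt5, Rpt2, Prosbeta5 and Prosalpha7 lay 8, 19, 27, 29 and 46 bp upstream of their nearest TSS. All 5 had no peak within 500 bp in replicate 3. Of the 7 such members whose highest optimal summit lay within 50 bp of a TSS, only Rpn13 and Rpn3 had one. The other 9 of the 16, whose highest optimal summit lay farther away, had a peak in replicate 3. Summits in the replicate lists shifted across this limit at some members. Prosalpha7 lay at -77 and -173 bp in replicates 1 and 2. In replicates 1, 2 and 3, Rpn3 lay at 0, -67 and -69 bp, Rpn13 at -52, -84 and -49 bp, and Prosbeta7 at 19, 31 and 67 bp. Rpt4, Rpt5, Rpt2 and Prosbeta5 stayed within 50 bp in replicates 1 and 2. Members with a pooled peak outside the optimal set followed this only in part. By pooled summit, Prosalpha6 (-17 bp) and Prosbeta3 (35 bp) had no replicate 3 peak, and Rpn7 (-267 bp) and Rpn9 (184 bp) had one. The other way round, Rpt3 (-472 bp) and Prosbeta2R2 (-84 bp) had none, and Prosbeta6 (39 bp) had a weak one of 19.9. The 50 bp limit was chosen after these values were seen, so the counts are descriptive.

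Over all genes with an optimal promoter peak the same direction was present but smaller. Replicate 3 lacked a peak at 18.9% of the 857 genes with a summit within 50 bp and at 11.6% of the 3016 with one farther away. Among peaks with a signal under 600 the shares were 21.4% and 17.6%. Replicate 1 lacked a peak at 0.117% and replicate 2 at 1.05% of the genes with a near summit. For genes with a summit farther away these shares were higher, at 0.928% and 2.22%, the opposite direction to replicate 3. Median G+C content also differed with presence in replicate 3. Within 100 bp of the summit it was 43.8% at the 5 members without a replicate 3 peak (range 31.8% to 45.8%). At the 11 with one it was 32.3% (26.4% to 51.2%), so the ranges overlap. Over all genes with an optimal promoter peak the medians were 38.8% and 35.3%. The part of G+C content in the result was not tested.

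**Figure D3:**
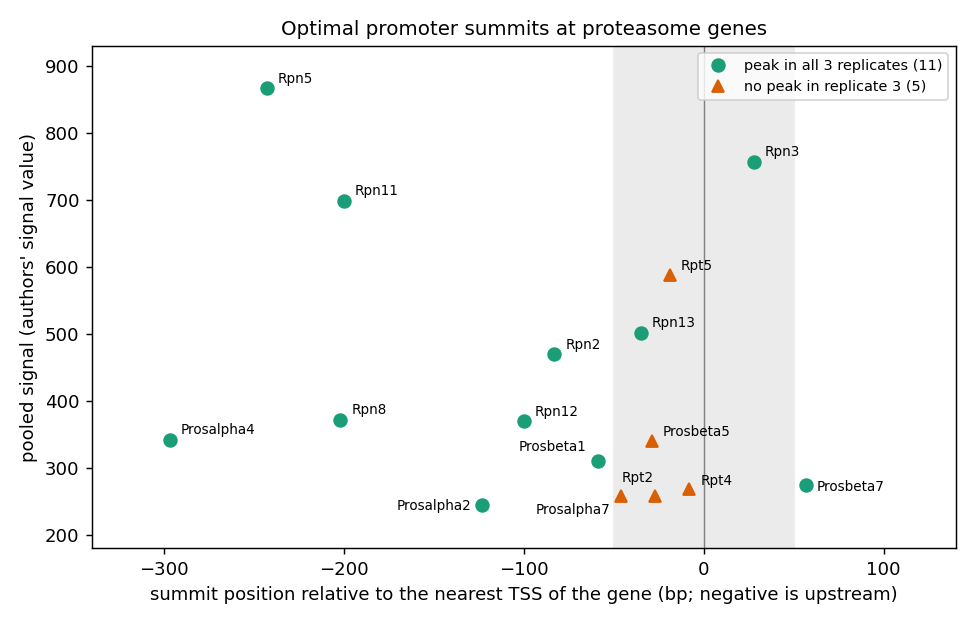
Pooled signal (authors' signal value) of the 16 optimal member peaks against the position of the highest summit relative to the nearest TSS of the gene (bp, negative is upstream). The shaded band is within 50 bp of the TSS; it holds all 5 members with no replicate 3 peak (triangles) and 2 of the 11 found in every replicate (circles).

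Of the 16 summits, 14 lay upstream of the nearest TSS of the gene, and 76.9% did over all genes with an optimal promoter peak. The median was -52.5 bp for members and -111 bp over all genes. Rpn3 (28 bp) and Prosbeta7 (57 bp) had summits downstream of their nearest TSS. The Rpt2 summit lay upstream of its nearest TSS but 97 bp downstream of another. The Rpn8 summit also lay within its own gene body, downstream of its first TSS. No unsuffixed gene without an optimal promoter peak had an optimal summit in its gene body, and neither did any copy. This count was not made over all genes. The promoter distance already takes in the first part of each gene body, so no conclusion about these genes is drawn from the absence.

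Most member peaks lay near the start of a neighbouring gene as well. A head-to-head partner, here a protein-coding gene on the other strand with a TSS at most 500 bp upstream, was present at 21 of the 32 unsuffixed genes (65.6%), at 3 of 16 copies (18.8%) and at 27.4% of all genes. Of the 3873 genes with an optimal promoter peak, 1920 had such a partner, as did 12 of the 16 members with one. At 12 of the 16 member peaks the summit lay within 500 bp of such a neighbour's TSS as well, a count not made over all genes. There, 1 peak counts for both genes and cannot be assigned to either. The neighbours were Hat1 at Rpn5, l(2)37Bb at Rpn3, RanBP3 at Rpt5, CtsL1 at Rpn13, Slbp at Rpn2, Slik at Rpn8, kat80 at Prosalpha4, dgo at Prosbeta5, Rrp42 at Prosbeta1, mldr at Rpt4, CG1671 at Prosalpha7 and CG13599 at Rpt2.

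At 3 of these the summit was nearer to the neighbour. With negative values upstream of each start, it lay at -56 bp from a TSS of kat80 and -297 bp from that of Prosalpha4. It lay at -123 bp from a TSS of Slik and -202 bp from the nearer TSS of Rpn8. At Rpn5 it lay at 134 bp from a TSS of Hat1 and -243 bp from that of Rpn5. Rpn5, Rpn13 and Prosalpha4 also had a second, lower optimal summit, at -44 bp (signal 443), -256 bp (354) and -63 bp (240). At the second summit of Rpn5, replicates 1, 2 and 3 had peaks of 66.2, 212 and 29.0, so replicate 3 was low there and highest at the main summit. The main Rpn5 and Prosalpha4 summits lie in introns of Hat1 and kat80. Rpn11, Rpn12, Prosbeta7 and Prosalpha2 had no other protein-coding TSS within 500 bp of the summit.

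Genes with a partner carried peaks more often in the whole genome too. A summit between paired starts can count for both genes. That rule alone can raise the share at genes with a partner, by an amount not measured here. Of all genes with a head-to-head partner, 50.3% had an optimal promoter peak, and of those without, 19.3%. For unsuffixed proteasome genes these were 12 of 21 (57.1%) and 4 of 11 (36.4%). Among genes with a partner, the shares with a peak were close, while those without differed more, over 11 genes.

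**Figure D4:**
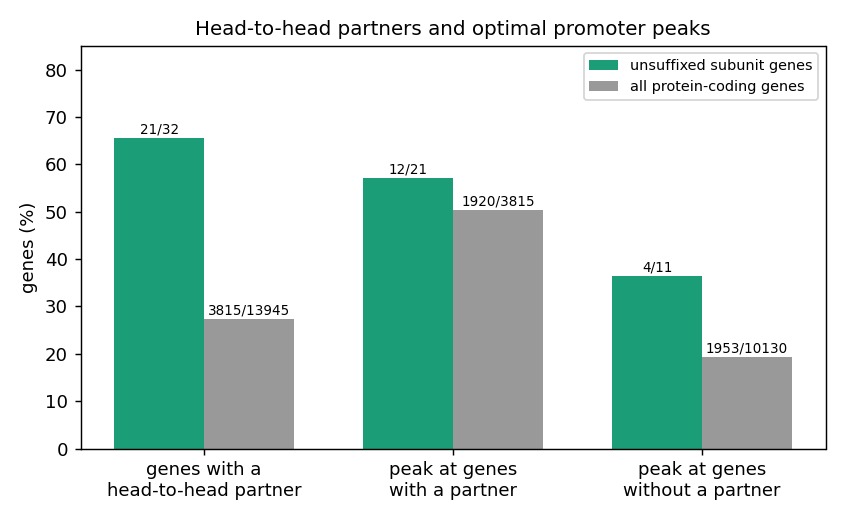
Share (%) of unsuffixed proteasome genes and of all protein-coding genes that have a head-to-head partner within 500 bp, and share with an optimal promoter peak among genes with and without a partner. Counts stand above the bars; 21 of 32 proteasome genes have a partner, and among genes with one the shares with a peak are 57.1% and 50.3%.

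The copies with an R or T suffix were nearly free of peaks. Several of these genes, such as Prosalpha3T and Prosalpha6T, are known as forms expressed in the testis. Of the 16, 14 had no promoter peak in any list, against 42.1% of all genes and 2 of the 32 unsuffixed ones. Prosbeta2R2 was the highest, at 58.4 in replicate 1 and 93.9 in replicate 2, no peak in replicate 3 and a pooled signal of 109. Its pooled summit lay at -84 bp, and CG1116 starts 129 bp away on the other strand. Rpt6R had a peak of 16.3 in replicate 3 alone, near the lowest signal of 15.8 in that list.

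Among the 12 unsuffixed genes that have such a copy, 5 had an optimal promoter peak: Prosalpha4, Prosbeta5, Rpn12, Rpn13 and Rpt4. In every copy but Prosalpha1R, all 31-base words around the TSSs are unique in the genome. For Prosalpha1R, whose words are also those of Prosalpha1, the lack of a peak cannot be read.

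A further 4 members had a peak in both replicates 1 and 2 and no pooled one: Rpn6, Rpt6, Rpn1 and Prosalpha5. They are 4 of the 27 members found in both replicates. Over all genes this held for 743 of 6160 (12.1%). None of the 4 had a peak in replicate 3.

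Promoter sequence differed between unsuffixed genes and copies. Windows ran from 250 bases before to 50 after each TSS, words were searched on both strands, and a gene counted when any of its windows held the word. The DRE (TATCGATA), known as the binding site of Dref at promoters of proliferation genes, was present at 12 of 32 unsuffixed genes (37.5%), 1 of 16 copies and 10.2% of all genes. Among unsuffixed genes it was no more frequent where a peak was present: 5 of the 16 with an optimal peak and 7 of the 16 without held it. Over all genes with an optimal promoter peak the share was 15.5%, above the 10.2% of all genes. The core ATCGAT, which lies within that word and was added after the printed sequences were seen, was at 20 of 32 (62.5%) and at 26.3% of all genes.

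The core of motif 1 (GGTCACAC), known from promoters of broadly expressed fly genes, was at 7 of 32 (21.9%) and 8.71% of all genes. The antioxidant response element (TGACNNNGC), bound by cnc with maf-S, was at 6 of 32 (18.8%) and 11.2%. The TATA box word TATAAA was at 14 of 32 (43.8%) and 51.2%, and GAGAG, the word of GAGA factor, was at 3 of 32 (9.38%) and 36.3%. The E-box CACGTG was at none of the 32, with 5.30% of all genes.

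Words of the Sp/KLF family were not frequent at these promoters. The GC box GGGCGG was at 3 of 32 (9.38%) and 8.70% of all genes, and the KLF type word GGGNGTGG was at none of the 32 and 3.78% of all. Within 100 bp of the 16 member summits, 1 GC box (at Prosbeta7) and no KLF type word was found, while 4.52% and 1.53% of the 2873 distinct optimal promoter summits held them. The DRE was near the summits of Prosbeta1, Rpn3 and Rpt5 (18.8%), against 6.72% of all. These matches say which letters are present and not what binds them.

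Other genes of the ubiquitin and proteasome pathway were read from a list of 32, of which all were found in the annotation, a pair of them under a newer symbol. An optimal promoter peak was present at 18 (56.2%, against the 27.8% of all genes). All 4 regulators of proteasome genes on the list had one. The highest was cnc, the fly relative of the factor that raises proteasome gene expression, with 370, 418 and 376 in replicates 1, 2 and 3 (388 ± 26.1, SD, n = 3; pooled 1149). Its summit lay 319 bp downstream of a TSS.

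Next were RpS27A, which encodes a ubiquitin fused to a ribosomal protein, at 261 in replicate 1 and 321 in replicate 2, no peak in replicate 3 and a pooled signal of 848, and Plap, whose yeast relative Doa1 binds ubiquitin, with 304, 317 and 232 (pooled 846). Ubiquitin supply genes had a peak in 4 of 5 cases, shuttle and unfolding factors in 5 of 8, and assembly factors and associated regulators in 3 of 6. The COP9 signalosome, a complex built like the lid, had one at 2 of 9 genes (22.2%), near the 27.8% of all genes. For the lid it was 5 of 8.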

How the data were processed

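Peak lists of Sp1-GFP ChIP-seq from 3 biological replicates were analysed. Text files deposited with the lists say that peaks were called on each alignment, and on all alignments together, with the same control, and that IDR on those 4 lists gave the optimal set. Coordinates are those of dm6, as the labels state. The sources used here do not name the aligner, peak caller, read filters or versions. The deposited signal (narrowPeak) is the authors' caller's value per peak, with no stated scaling between lists. Depth is unknown, so no interval or floor is given.

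Gene models were Ensembl release 115 (protein-coding, 19607 TSSs on the 6 main arms) and sequence was NCBI's Release 6. No peak ended beyond its arm, and no line was shared between replicate lists. The 8001 optimal peaks equal the strongest pooled peaks. The highest summit within 500 bp of a TSS stood for a gene. Uniqueness counted 31-base words within 500 bp of TSSs over the genome. The assignment of peaks was tested on simulated data. Python 3.11.15, numpy 2.4.6, pandas 2.3.3 and matplotlib 3.10.9 were used.

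With 1 group, and with members and lists chosen with earlier results of these data known, no test was made: counts stand beside those of all protein-coding genes. Every member is accounted for, those with an optimal peak with each replicate's signal, and of the pathway list the 3 highest are named. Alternatives changed the promoter distance, the peak set, the overlap rule and the TSSs, and left out each replicate.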

Additional observations from a re-analysis of the deposited data

How the results depend on the processing

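Of 62 values recomputed under alternatives, 48 stayed within the limits set (1.5 times for counts, 1 SD otherwise) and 14 moved. These values repeat each other in part. The count of members with an optimal peak equalled that of unsuffixed genes under every alternative, and both moved together. The copies, at 0, could only count as unmoved while they had no peak. With only the stronger 50% of optimal peaks, 6 members remained, all unsuffixed (18.8% of these, against 16.4% of all genes, 2288 genes), with 10 pathway genes. Leaving out a replicate also replaced the optimal set, since IDR could not be rerun, by genes among the 8001 strongest peaks of both others, so these values are not the effect of the replicate alone. Without replicate 1, 2 or 3, members and unsuffixed genes then ranged from 6 (without replicate 1) to 16 (without replicate 3), beside 6 when all 3 were required, pathway genes from 9 to 13 and all genes from 2647 to 3495. Copies stayed at 0 under every alternative run. With 1 replicate left out, members in every remaining list ranged from 14 to 27 and members among the strongest peaks of every remaining replicate from 6 to 16, both highest without replicate 3, where fewer lists must hold the gene. At 200 bp these counts were 11 and 3, and with the most upstream TSS only they were 13 and 5. Of the members with an optimal summit within 25 bp of a TSS, 2 of 2 lacked a replicate 3 peak, and of those within 100 bp, 5 of 11 did, alternatives chosen after seeing the data. The lists hold no reads, so weak sites below each list's 30000 peaks were not assessed. No paired analysis was possible because there is 1 group.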
